A study of Rattus norvegicus with 15 samples.

Results

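Cytotoxic lymphocytes, the CD8 T cells and natural killer (NK) cells, kill by emptying granules onto their targets. Perforin makes pores in the membrane of the target, and granzymes, a family of serine proteases, enter through them and cut proteins inside the cell. The granule genes have long been followed in rejecting transplants because these lymphocytes enter the graft. The genes described here are 5 granzymes (Gzma, Gzmb, Gzmc, Gzmk and Gzmm), perforin (Prf1), the granule membrane protein Nkg7, the granule proteoglycan serglycin (Srgn), the cysteine protease cathepsin W (Ctsw) and cystatin F (Cst7), an inhibitor of the cathepsins that activate granzymes. They were chosen by name, with earlier results of these data known. Every probe set that carries 1 of these symbols and no other was taken. This gave 10 probe sets for 9 of the 10 genes, out of 31042 probe sets and 14217 genes on the array. Gzmb had 2 probe sets and the other 8 measured genes had 1 each. Gzmc had none under this rule. A probe set that pairs Gzmc with a pseudogene and a probe set that pairs Gzmb with another gene were not used.

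RNA of whole rat kidneys was measured on 15 Affymetrix rat expression arrays, 1 array per kidney and 5 kidneys per group. All rats were male and aged 10 to 12 weeks. Control kidneys (ctr) were native and came from Lewis-Brown-Norway (LBN) donors, of which they were the second kidney. Some ctr kidneys may therefore come from the same animal as a graft, but the labels do not tie them. Syngeneic grafts (sTX) were LBN kidneys placed into LBN recipients and went through the surgery without a mismatch between donor and recipient. Allogeneic grafts (aTX) were LBN kidneys placed into Lewis recipients, a combination that leads to acute rejection. All recipients lost both of their own kidneys at transplantation, received no immunosuppression, and the grafts were taken on the fourth day. The strains follow the series' design text and the paper, and the source names of the samples give other strain combinations. The treatment field of sTX 4 and sTX 5 reads allogeneic, against their titles, so that results were repeated without both. Values are MAS5 signals, the intensity of a probe set after background subtraction and scaling, with a trimmed mean of 100 on each array and array medians of 24.3 to 30.

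Start regions of 4 of these genes are shown because they allow the neighbours Gzma and Gzmk, which differed in the size of their rise, to be read beside Gzmb and Prf1. Gzma and Gzmk lie next to each other on chromosome 2 and Gzmb next to Gzmc on chromosome 15, with 0 protein-coding genes between the members of a pair, whereas Prf1 and Srgn on chromosome 20 have 20 between them. The sequences are the 250 bases before the start of the gene in RefSeq on GRCr8, written in the direction of transcription. Capitals mark exact matches, on either strand, to 5 short motifs: the Runx motif TGTGGT, the T-box motif GGTGTGA, the AP-1 motif TGANTCA, the STAT motif TTCNNNGAA and the Ets motif GGAAGT.
Gzma, chr2:46485697-46485946, minus strand: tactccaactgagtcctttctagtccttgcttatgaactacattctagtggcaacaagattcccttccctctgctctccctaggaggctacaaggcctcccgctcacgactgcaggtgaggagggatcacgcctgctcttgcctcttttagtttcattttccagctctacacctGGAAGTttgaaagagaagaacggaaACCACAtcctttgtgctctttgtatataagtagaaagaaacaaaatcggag
Gzmk, chr2:46582016-46582265, minus strand: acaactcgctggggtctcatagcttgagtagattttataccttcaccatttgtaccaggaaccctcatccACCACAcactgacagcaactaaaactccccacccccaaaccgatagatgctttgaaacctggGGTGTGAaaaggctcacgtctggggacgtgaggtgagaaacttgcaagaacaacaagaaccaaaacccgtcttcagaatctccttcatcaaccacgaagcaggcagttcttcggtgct
Gzmb, chr15:34462470-34462719, minus strand: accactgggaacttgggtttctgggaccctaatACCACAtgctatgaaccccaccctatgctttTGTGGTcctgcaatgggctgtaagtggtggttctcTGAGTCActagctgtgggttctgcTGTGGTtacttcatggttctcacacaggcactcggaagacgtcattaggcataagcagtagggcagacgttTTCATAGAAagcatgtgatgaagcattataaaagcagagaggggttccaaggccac
Prf1, chr20:29788790-29789039, plus strand: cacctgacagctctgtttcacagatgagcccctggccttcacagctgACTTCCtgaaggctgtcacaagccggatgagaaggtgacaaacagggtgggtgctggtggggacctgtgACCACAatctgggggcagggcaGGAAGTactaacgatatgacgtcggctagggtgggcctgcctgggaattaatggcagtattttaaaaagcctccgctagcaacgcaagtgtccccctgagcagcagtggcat
Promoters of 9 of the 10 genes were held by the table, without Ctsw. In windows of 300 bases that also take in the first 50 bases of the gene, the Runx motif was present for 8 of the 9, the exception being Srgn, and in 17.3% of all 33469 promoters of the same length. The Gzmb window held 3 Runx matches, 1 AP-1 match and 1 STAT match. The T-box motif stood in the windows of Gzmk and Gzmm and in 3.8% of all, the AP-1 motif in those of Gzmb and Cst7 and in 7.3% of all, and the STAT motif in those of Gzmb and Nkg7 and in 8.9% of all. The Ets motif was found for Gzma, Prf1 and Cst7 and in 22.6% of all. No 2 matches overlapped, and the 5 motifs were picked from general knowledge of lymphocyte promoters.

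The probe sets were 1379293_at for Gzma, 1387390_at for Gzmk, 1370369_at for Gzmm, 1370096_at for Prf1, 1368455_at for Nkg7, 1368655_at for Srgn, 1382378_at for Ctsw, 1382622_at for Cst7 and 1370628_at and 1379794_at for Gzmb. In the rejecting allografts all 10 probe sets of the granule genes rose, against ctr and against sTX, and in the syngeneic grafts 0 of 10 passed the test. Against ctr, 20.2% of all probe sets were called higher and 22.2% lower by limma at an adjusted p below 0.05. Every aTX array lay above every ctr array for 10 of 10 members, as it did for 16.4% of all probe sets. The paper had already listed Gzma, Gzmb, Prf1 and Cst7 as raised in the allografts. Because the members were chosen with earlier results known, these counts and shares describe them and test nothing. The median log2 change of the members was 4.73, beside -0.07 over all probe sets. Against sTX, 10 of 10 members were higher and again did not overlap with the other group, where 13.9% of all probe sets were called higher, 22.1% lower, and 12.1% did not overlap in this direction. Their median log2 change was 4.25, beside -0.18 over all probe sets. With the arrays centred on their medians the calls against sTX over all probe sets went from 4327 higher and 6857 lower to 5427 and 5242, their median to -0.06, and the members stayed at 10 of 10. The comparisons against ctr and against sTX share the aTX arrays. In whole tissue, more cells of a type and more RNA per cell cannot be told apart.

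**Figure D1:**
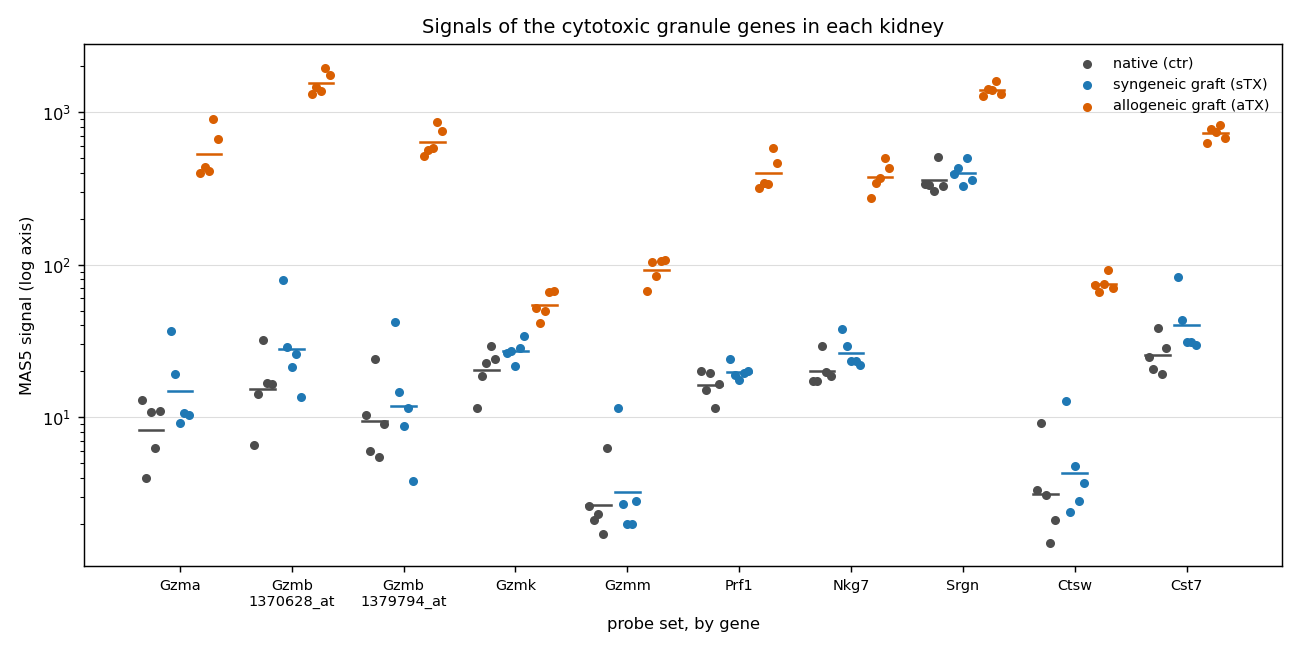
MAS5 signal (log axis) of the 10 probe sets of the granule genes in each of the 15 kidneys, with 5 points per group and a line at the geometric mean. The aTX points lie above all ctr and sTX points for every probe set, while ctr and sTX overlap throughout.

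Granzyme B, which cuts caspases and Bid in the target cell, had signals of 1314, 1453, 1381, 1958 and 1757 in aTX 1 to 5 on its brighter probe set (1370628_at). The ctr kidneys gave 6.6, 14.1, 32.0, 16.7 and 16.5, and the sTX kidneys 79.6, 29.0, 21.2, 26 and 13.5. The lowest allograft was thus far above the highest syngeneic graft, and sTX 1 stood above the other syngeneic grafts. The rise over ctr was 102-fold (95% confidence interval 59.3 to 175, log2 change 6.67, SE 0.37, adjusted p = 1.17e-11) and that over sTX 55.5-fold (adjusted p = 2.24e-10). The second probe set of Gzmb (1379794_at) gave 518, 561, 579.9, 861 and 748 in aTX, against 5.5 to 23.9 in ctr and 3.8 to 42.1 in sTX. Its rise over ctr was 68.3-fold (35.1 to 133, adjusted p = 9.57e-10) and over sTX 54.2-fold (adjusted p = 4.7e-09). Both probe sets ordered the allografts alike at the upper end, with aTX 4 first and aTX 5 next. Granzymes are close relatives in sequence, and how much of either signal comes from a neighbouring granzyme gene was not tested.

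Granzyme A, a tryptase that starts a death pathway without caspases, had signals of 401, 437, 412, 903 and 668 in the allografts. It gave 13.0, 4.0, 10.8, 6.3 and 11 in ctr and 36.7, 19.1, 9.2, 10.6 and 10.3 in sTX. Again the groups did not overlap, and aTX 4 and aTX 5 stood above the other 3 allografts. The rise was 64.5-fold over ctr (37.9 to 110, adjusted p = 4.2e-11) and 36.2-fold over sTX (adjusted p = 8.76e-10).

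Granzyme K, also a tryptase and coded beside Gzma, rose much less. Its signals were 51.7, 41.2, 49.6, 66.6 and 67.1 in aTX, 11.4, 18.7, 22.8, 29.2 and 24.1 in ctr, and 26.2, 27.2, 21.7, 28.2 and 33.8 in sTX. The lowest allograft, at 41.2, was above the highest syngeneic graft at 33.8. The rise was 2.68-fold over ctr (1.94 to 3.70, adjusted p = 2.15e-05) and 2.0-fold over sTX (1.45 to 2.76, adjusted p = 0.00121). The intervals of Gzma and Gzmk did not overlap in either comparison.

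Granzyme M, which cuts after methionine and leucine and is known best from NK cells, went from 2.6, 2.1, 2.3, 1.7 and 6.3 in ctr to 67.4, 104, 84.5, 106 and 107 in aTX. In sTX it was 11.5, 2.7, 2.0, 2.0 and 2.8. Only sTX 1 exceeded the highest ctr kidney. The rise was 34.7-fold over ctr (17.7 to 67.8, adjusted p = 1.37e-08) and 28.7-fold over sTX (adjusted p = 5.99e-08).

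Perforin (Prf1), which lets the granzymes into the target cell, was 317, 342, 340.5, 582 and 467 in aTX. The ctr kidneys gave 20.1, 15.1, 19.4, 11.4 and 16.5, and the sTX kidneys 24.1, 18.8, 17.5, 19.5 and 20.2. Both kinds of kidney without rejection lay within 11.4 to 24.1, so that this gene had a low and even background. The rise was 24.6-fold over ctr (19.0 to 31.9, SE of the log2 change 0.18, adjusted p = 7.27e-14) and 20.0-fold over sTX (15.5 to 25.9, adjusted p = 7.47e-13).

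Nkg7, a membrane protein that takes part in granule release, was 275, 344, 368, 500.1 and 432 in aTX, against 17.2, 17.2, 29.4, 19.8 and 18.7 in ctr and 37.6, 29.1, 23.3, 23.4 and 22 in sTX. It was 18.8-fold higher than in ctr (14.4 to 24.5, adjusted p = 3.54e-13) and 14.2-fold higher than in sTX (adjusted p = 4.29e-12). Serglycin, on whose sugar chains granzymes and perforin are packed, is also made by mast cells, monocytes and other blood cells. It had clear signals in native kidney, with 339, 334.5, 305, 509.6 and 330.1 in ctr, and 390.3, 431, 330.3, 502 and 358 in sTX. In aTX it was 1285, 1415, 1402, 1604 and 1317, a rise of 3.92-fold over ctr (3.28 to 4.69, adjusted p = 6.46e-11) and 3.52-fold over sTX (adjusted p = 4.89e-10). The highest ctr kidney of Srgn, ctr 4, still lay far below the lowest allograft.

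Cystatin F (Cst7) was 628, 774, 739, 828 and 673.5 in aTX, 24.7, 20.7, 38.2, 19.1 and 28.6 in ctr and 82.9, 43.3, 31.0, 30.9 and 29.6 in sTX. It rose 28.5-fold over ctr (20.4 to 39.8, adjusted p = 1.3e-12) and 18.1-fold over sTX (adjusted p = 2.55e-11). Cathepsin W, a cysteine protease of cytotoxic lymphocytes, was 73.1, 66.3, 74.6, 92.0 and 70.1 in aTX, 3.3, 9.2, 3.1, 1.5 and 2.1 in ctr and 12.7, 2.4, 4.8, 2.8 and 3.7 in sTX. The allografts lay close together for both genes, with a highest over lowest graft of 1.32 for Cst7 and 1.39 for Ctsw. The rise of Ctsw was 23.9-fold over ctr (12.1 to 47.5, adjusted p = 9.03e-08) and 17.3-fold over sTX (adjusted p = 7.12e-07).

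These folds rest on control signals near the lower end of the scale, and they shrank when 16 was added to each signal before the logarithm. Over ctr they then were 48.7-fold and 25.1-fold for the 2 probe sets of Gzmb, 22.2-fold for Gzma, 17.8-fold for Cst7, 12.8-fold for Prf1, 10.8-fold for Nkg7, 5.74-fold for Gzmm and 4.62-fold for Ctsw. Srgn at 3.79-fold and Gzmk at 1.92-fold moved less, and 10 of 10 members were called higher under this setting. The size of the fold of Gzmm and Ctsw, whose native signals were mostly below 4, is therefore the least certain. Leaving out 1 array at a time changed no fold over ctr by more than 1.31 times (Ctsw, without ctr 2).

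**Figure D2:**
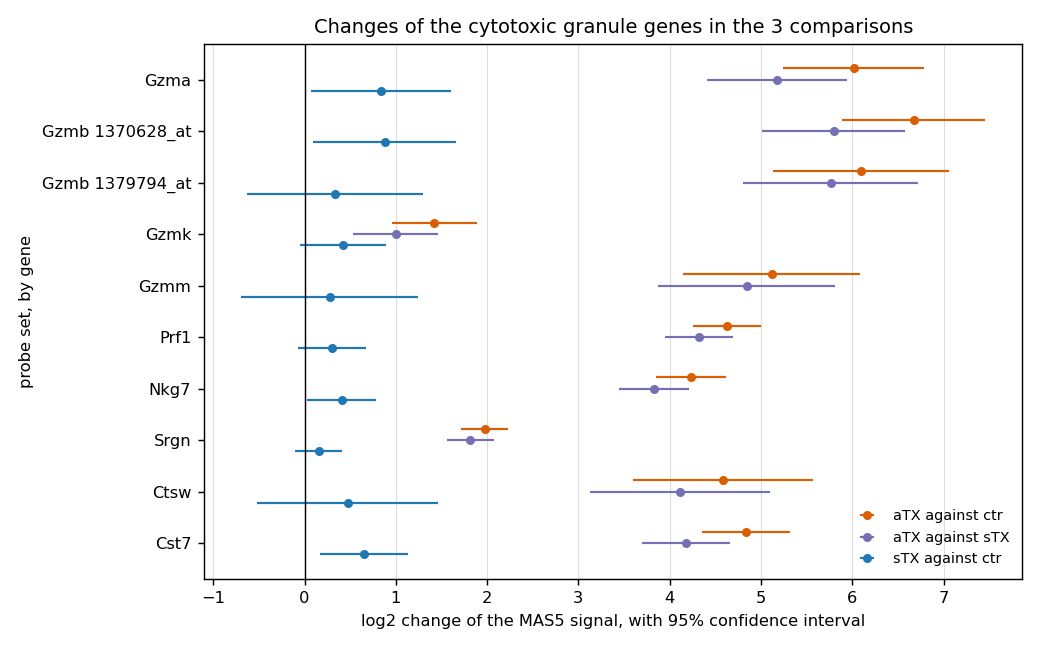
Log2 change of the MAS5 signal with its 95% confidence interval for the 10 probe sets in the 3 comparisons. The changes of aTX against ctr run from 1.42 (Gzmk) to 6.67 (Gzmb), those of aTX against sTX lie close to them, and those of sTX against ctr run from 0.16 to 0.88.

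The syngeneic grafts had been through the same surgery, and the granule genes were not called in them. Against ctr, 0 of 10 members passed in limma, and 4 had an unadjusted p below 0.05, namely Gzma, the brighter probe set of Gzmb, Nkg7 and Cst7. The methods' t-test, run on the same values, called 0 of 10 after Benjamini-Hochberg adjustment and 0 of 10 at their own threshold. Of all probe sets, 11.4% were called higher and 6.32% lower, and 8.44% had every sTX array above every ctr array, against 0 of 10 members. All 10 log2 changes were above 0, with a median of 0.41 beside 0.09 over all probe sets. The shares of all probe sets with an unadjusted p below 0.05, or with a log2 change above 0, were not worked out. With the arrays centred on their medians, which moved the median of all probe sets to -0.11 and the calls from 3539 higher and 1961 lower to 1812 and 4724, 9 of 10 stayed above 0 and the median of the members was 0.22.

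The intervals for sTX over ctr were wide. Their upper bounds were 3.04-fold for Gzma, 3.16-fold and 2.45-fold for the probe sets of Gzmb, 2.37-fold for Gzmm, 2.75-fold for Ctsw and 1.59-fold for Prf1. These come from the model without the hybridization run and do not bound the effect of surgery. The hybridization run is a grouping of the arrays made here from their recorded hybridization times, and ctr and sTX did not share it. With the run as a block the upper bounds were 4.94-fold for Gzma, 5.10-fold and 4.43-fold for Gzmb, 4.67-fold for Gzmm, 5.15-fold for Ctsw and 2.08-fold for Prf1. Cst7 came closest to the threshold, at 1.57-fold (1.12 to 2.19, adjusted p = 0.0576), and was at 1.88-fold with the run as a block (1.04 to 3.41, adjusted p = 0.284). It passed without ctr 3 (log2 change 0.80, adjusted p = 0.0187), without sTX 4 and sTX 5 (0.92, adjusted p = 0.0173), when dim probe sets, with a mean signal below 50, were left out (0.65, adjusted p = 0.0377), and without sTX 3, sTX 4 or sTX 5 alone. The brighter probe set of Gzmb passed without ctr 3 (1.15, adjusted p = 0.0321), without sTX 5 (1.14, adjusted p = 0.0365) and without sTX 4 and sTX 5 (1.26, adjusted p = 0.0405). Nkg7 passed without ctr 3 (0.54, adjusted p = 0.0324). The syngeneic graft sTX 1 was the highest of its group for 8 of 10 members, with a median log2 deviation of 1.18 from the sTX mean, while sTX 3 was the lowest for 5 and sTX 5 for 4. Among native kidneys ctr 3 was the highest for 4 probe sets, 2 of them of Gzmb (median deviation 0.32), and ctr 4 the lowest for 5 (median deviation -0.40). Ranks of the kidneys over all probe sets were not worked out.

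Within the allografts most members were highest and lowest in the same kidneys. The kidney aTX 4 was the highest for 8 of 10 probe sets and aTX 1 the lowest for 8. Gzmb is counted here with both of its probe sets, and such ranks were not worked out for all probe sets. The median log2 deviation of the members from their aTX mean was -0.28, -0.15, -0.13, 0.32 and 0.21 in aTX 1 to 5. For 7 of the 10 probe sets aTX 4 and aTX 5 lay above the other 3 grafts, with Srgn, Ctsw and Cst7 as exceptions. Gzma spread the most among the allografts, with a highest over lowest graft of 2.25, followed by Prf1 with 1.83, Nkg7 with 1.82 and the second probe set of Gzmb with 1.66. Srgn spread the least, with 1.25.

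**Figure D3:**
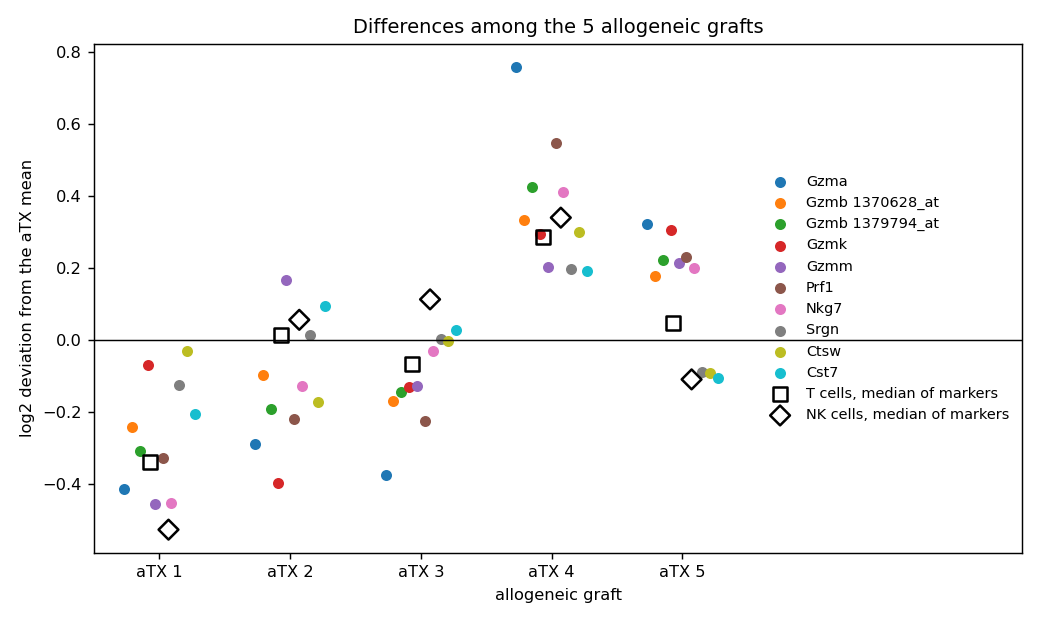
Log2 deviation from the aTX mean of each granule gene probe set (coloured points) and the median deviation of 13 T cell and 8 NK cell marker genes (open square and diamond) in the 5 allogeneic grafts. Of the 10 probe sets 8 are lowest in aTX 1 and 8 highest in aTX 4, where the medians of the marker lists are also lowest and highest. In aTX 5 the granzymes, Prf1 and Nkg7 lie above the marker lists.

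Markers of the cells that carry such granules were mostly higher in aTX than in ctr as well. Of all genes, 27.7% were called higher in aTX than in ctr, 16.1% higher in sTX than in ctr and 19.8% higher in aTX than in sTX. Of 13 measured T cell markers 13 were higher in aTX than in ctr and 4 were higher in sTX, and their summed signal was 193.0 to 298.9 in ctr, 297.6 to 472.3 in sTX and 2655 to 4104 in aTX. Of 8 NK cell markers 5 were higher in aTX and 1 in sTX, with sums of 56.4 to 73.7 in ctr, 81.8 to 115 in sTX and 406 to 622 in aTX. Not called in aTX against ctr were Klrg1 and Ncr3, at 0.454 and 0.780 of the ctr level. Ncr1, which defines NK cells, was not called higher in aTX either, at 6.18 ± 1.5 in aTX and 3.62 ± 3.43 in ctr (SD, n = 5, adjusted p = 0.205). Against sTX, where it was 2.46 ± 3.42, Ncr1 was called higher in aTX (4.55-fold, adjusted p = 0.0291), as were 6 of the 8 NK cell markers in all. With 16 added to its weak signal, Ncr1 was 1.21-fold higher than in sTX and no longer called by limma (adjusted p = 0.0767). On the probe sets with the highest mean log2 signal, Cd8a rose 50.9-fold (adjusted p = 1.18e-09) and Cd3e 21.3-fold (adjusted p = 5.7e-13) over ctr. Both folds lay in the range of the members, and with 16 added to the signal they were 15.2-fold and 10.8-fold. For Cd8a this place depends on the probe set. The paper lists a larger fold over control on another Cd8a probe set, above its folds for granzyme A, granzyme B and perforin. Cd4 was 1.74-fold higher in aTX than in ctr (adjusted p = 0.000203) and 1.91-fold higher in sTX than in ctr (adjusted p = 0.000187), and aTX against sTX was not called (0.908-fold, adjusted p = 0.531). The median deviation of the T cell list was -0.34, 0.01, -0.07, 0.29 and 0.05 in aTX 1 to 5, and that of the NK cell list -0.53, 0.06, 0.11, 0.34 and -0.11. By these medians aTX 1 was lowest and aTX 4 highest for the lists, as by the median of the members. In the syngeneic graft sTX 1 the sums of the T cell markers (472), the NK cell markers (115) and the monocyte and macrophage markers (4320.5) were each the highest of the group. No marker of these lists was at 0 in all arrays of a group, and their part in the members' changes was not tested.

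Other blood cells store proteases or serglycin too. Beside the counts below, 27.7% of all genes were called higher and 27.7% lower in aTX than in ctr, and 16.1% higher in sTX than in ctr. Of 8 mast cell markers 3 were higher and 1 lower in aTX than in ctr, with sums of 58.4 to 78.9 in ctr, 61.8 to 97.6 in sTX and 83.2 to 104 in aTX. All 9 monocyte and macrophage markers were higher in aTX and 8 in sTX, with sums of 1795 to 2321 in ctr, 3009.5 to 4320.5 in sTX and 7479 to 9682 in aTX. Of 4 neutrophil markers 3 were higher in aTX and 2 in sTX, with sums of 19.9 to 33.5, 34.4 to 125 and 260.1 to 569. The 3 were S100a8 (14.8-fold over ctr), S100a9 (23.5-fold) and Csf3r (18.0-fold), and with 16 added to the signal 4.18-fold, 6.69-fold and 6.83-fold. The other neutrophil marker, Camp, stayed low, at 1.44 ± 0.52 in aTX and 1.28 ± 0.64 in ctr. Of 4 B and plasma cell markers 1 was higher in aTX, with sums of 28.8 to 41.7 in ctr, 24.8 to 46.9 in sTX and 49.2 to 72.8 in aTX. The counts of mast cell and of B and plasma cell markers called higher in aTX were near the share of all genes. The kidney's own markers went the other way, with 9 of 9 tubule, 4 of 4 podocyte and 5 of 5 endothelial genes lower in aTX than in ctr. Each list was strongly present in native kidney, among them Umod of the thick ascending limb at 4934 ± 545. The part of all these cells in the members' changes was not tested.

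Signs of RNA quality and the hybridization run, as set by the recorded hybridization times, also differed between groups. The 3'/5' ratio of Gapdh was 1.13 to 1.25 in ctr, 1.07 to 1.13 in sTX and 1.01 to 1.07 in aTX, and that of actin 1.54 to 1.98, 1.45 to 1.61 and 1.14 to 1.29. Their part in the results was not tested. The ctr arrays shared 1 hybridization run with aTX 2, aTX 3 and aTX 4, and the sTX arrays shared the other with aTX 1 and aTX 5. Within the first run 10 of 10 members were higher in aTX than in ctr, with log2 changes from 1.34 (Gzmk, adjusted p = 0.00246) to 6.69 (Gzmb, adjusted p = 8.05e-09). Within the second run 10 of 10 were higher in aTX than in sTX, from 1.12 (Gzmk, adjusted p = 0.00272) to 5.76 (Gzmb, adjusted p = 7.38e-06). Because no run held both ctr and sTX, the comparison of these groups is confounded with the hybridization run. With the run as a block, which ties them through the allografts, 0 of 10 members passed in sTX against ctr and their median log2 change was 0.52.

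The machinery around the granules changed unevenly. Of 54 measured genes in 7 lists, 38 were higher and 7 lower in aTX than in ctr, with a median log2 change of 1.29, where 27.7% of all genes were called higher and 27.7% lower. In sTX 15 were higher and 3 lower than in ctr, where 16.1% of all genes were called higher and 8.86% lower. That split became 9 and 9 with the arrays centred on their medians, and fell to 4 and 1 when the hybridization run entered as a block. Without sTX 1, 11 were called in place of 18. In aTX against sTX 33 were higher and 7 lower, where 19.8% of all genes were called higher and 28.4% lower.

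Granules are moved, docked and fused by a set of proteins, several of which are known from inherited defects of cytotoxic cells. Of 15 such genes 6 were higher in aTX than in ctr and 4 lower, with a median log2 change of -0.08. Over all genes 27.7% were called higher and 27.7% lower, with a median of -0.03. The count of genes called lower and the median were thus near those of all genes. Unc13d, the priming factor Munc13-4, went from 1.46 ± 0.58 in ctr and 2.60 ± 0.98 in sTX to 16.8 ± 5.06 in aTX (SD, n = 5, 11.9-fold over ctr, adjusted p = 3.32e-06), on a weak signal throughout that gave 1.86-fold with 16 added. Stx11, the syntaxin of the fusion step, went from 10.6 ± 1.26 in ctr to 16.3 ± 4.15 in sTX (1.51-fold, adjusted p = 0.038) and 86.7 ± 10.8 in aTX (8.18-fold, adjusted p = 7.13e-11, and 3.85-fold with 16 added). The call of Stx11 in sTX was lost in 12 of 20 alternatives, among them quantile normalization and the hybridization run as a block. Rab27a, Stxbp2, Lyst and Sytl1 were also higher in aTX. Lamp1, Vamp7, Sytl2 and Syt7 were lower, and of these Lamp1, the lysosomal membrane protein that most cells carry, was 0.781 of the ctr level (adjusted p = 0.000334). Ap3b1, Vamp8, Stx7, Lamp2 and Kif5b were not called.

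The cathepsins that trim granzymes to their active form were mostly uncalled. Ctsc, the main one, went from 757 ± 101 in ctr to 947 ± 89.1 in sTX (1.25-fold, adjusted p = 0.0407) and 1225 ± 189 in aTX (1.61-fold, adjusted p = 2.02e-05). Its call in sTX was lost in 12 of 21 alternatives, centring of the arrays on their medians among them. Ctsh and Ctsl, which kidney makes strongly, were 0.917 and 0.969 of the ctr level in aTX (adjusted p = 0.417 and 0.788).

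Of 3 measured inhibitors of granzymes, 2 were higher and 1 lower in aTX than in ctr, and 2 were higher in sTX. The shares of all genes were 27.7% higher and 27.7% lower in aTX, and 16.1% higher in sTX. Serpinb9, the rat relative of the human granzyme B inhibitor PI-9, was 152.8, 143, 125.5, 150.8 and 151 in ctr, 272, 241.5, 228, 239 and 236 in sTX and 880.1, 961, 930.1, 1026 and 933 in aTX. The 3 groups did not overlap. It was 1.68-fold higher in sTX than in ctr (adjusted p = 2.7e-07) and 6.55-fold higher in aTX (adjusted p = 1.24e-15). Serpina3n, a secreted serpin that can block granzyme B in mice, was 13.0 ± 4.51 in ctr, 66.2 ± 21.6 in sTX and 149 ± 20.3 in aTX (5.09-fold with adjusted p = 2.08e-07 and 11.8-fold with adjusted p = 3.24e-11), and with 16 added these folds were 2.78 and 5.70. Serpinb6a was lower in aTX, at 0.773 of ctr (adjusted p = 0.00243), and was not called in sTX (adjusted p = 0.162). Whether inhibitors and granule genes differ in their response was not tested.

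Of 7 measured genes in the list of granzyme substrates and linked factors, 6 were higher and 1 was lower in aTX. Of all genes 27.7% were called higher and 27.7% lower. Lmnb1, the nuclear lamin B1, was 45.2 ± 12.7 in ctr, 158 ± 19.9 in sTX and 545 ± 59.1 in aTX (12.3-fold over ctr, adjusted p = 6.13e-14). Bid, the death protein that granzyme B cuts, was 140 ± 13.8, 129 ± 9.81 and 462 ± 12.0 (3.32-fold over ctr, adjusted p = 3.54e-13). Ndufs3, a subunit of complex I, was the substrate that fell, to 0.620 of ctr (adjusted p = 6.7e-08). These are RNA signals and do not measure cleavage.

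The list of death ligands and receptors, the other arm of cytotoxic killing, also held the cytokine Ifng. Of its genes, 7 of 7 were higher in aTX than in ctr and 4 in sTX, beside 27.7% and 16.1% of all genes. Ifng, which cytotoxic lymphocytes secrete, was 245, 376, 337, 295 and 244 in aTX, 3.0, 1.9, 7.5, 7.4 and 1.9 in ctr and 15.6, 8.0, 5.5, 3.6 and 5.2 in sTX. It was 82.1-fold higher in aTX than in ctr (adjusted p = 1.14e-10), or 15.4-fold with 16 added to the signal, and was not called in sTX (1.84-fold, adjusted p = 0.162). Tnf was 3.14 ± 1.90 in ctr, 11.4 ± 5.63 in sTX and 112 ± 21.6 in aTX (41.3-fold over ctr, adjusted p = 1.55e-09, and 6.62-fold with 16 added). Its call in sTX (3.82-fold, adjusted p = 0.00256) was lost in 3 of 20 alternatives, the hybridization run block (adjusted p = 0.146) among them. Fas ligand (Faslg) rose 4.49-fold (adjusted p = 8.05e-07) and its receptor Fas 10.1-fold (adjusted p = 7.6e-11), which became 2.52-fold and 5.04-fold with 16 added.

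Transcription factors of the cytotoxic programme included 9 that were higher and 1 that was lower in aTX, of 10 measured, and 1 higher and 1 lower in sTX. Of all genes 27.7% were called higher and 27.7% lower in aTX, and 16.1% and 8.86% in sTX. The counts in sTX were near these shares. Batf, a partner of Jun proteins in activated T cells, went from 9.02 ± 7.35 in ctr and 17.8 ± 7.23 in sTX to 177 ± 21.7 in aTX (25.3-fold over ctr, adjusted p = 1.51e-08, and 7.92-fold with 16 added). Runx3, which binds the Runx motif marked above and drives perforin and granzyme B in CD8 T cells, went from 25.7 ± 7.49 and 22.3 ± 14 to 124 ± 24.5 (4.91-fold over ctr, adjusted p = 4.43e-05). Eomes rose 4.33-fold (adjusted p = 0.00233) on a signal of 13.1 ± 3.44, and 1.5-fold with 16 added. Id2 was the factor that fell, to 0.624 of ctr (adjusted p = 3.45e-07), and it fell in sTX as well.

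Cytokines and receptors that induce the programme included 7 of 9 that were higher in aTX and 1, Il2rg, that was higher in sTX. Of all genes 27.7% were called higher in aTX and 16.1% in sTX, and the count in sTX was near that share. Il2rg, the common gamma chain of the IL-2 and IL-15 receptors, was 77.0 ± 18.3 in ctr, 113 ± 32.5 in sTX and 1268 ± 122 in aTX (16.8-fold over ctr, adjusted p = 9.51e-14). Its call in sTX (1.47-fold, adjusted p = 0.0202) was lost in 8 of 21 alternatives. Among them were centring on array medians (adjusted p = 0.107), the hybridization run block (adjusted p = 0.201) and leaving out sTX 1 (adjusted p = 0.0571). Il2ra was 5.50 ± 2.60, 6.06 ± 5.96 and 65.3 ± 17.0 (13.2-fold over ctr, adjusted p = 1.41e-05, and 3.74-fold with 16 added to the signal). The ligand Il15 rose 2.46-fold (adjusted p = 1.28e-07), whereas Il12a and Il12b, both weak, were not called.

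**Figure D4:**
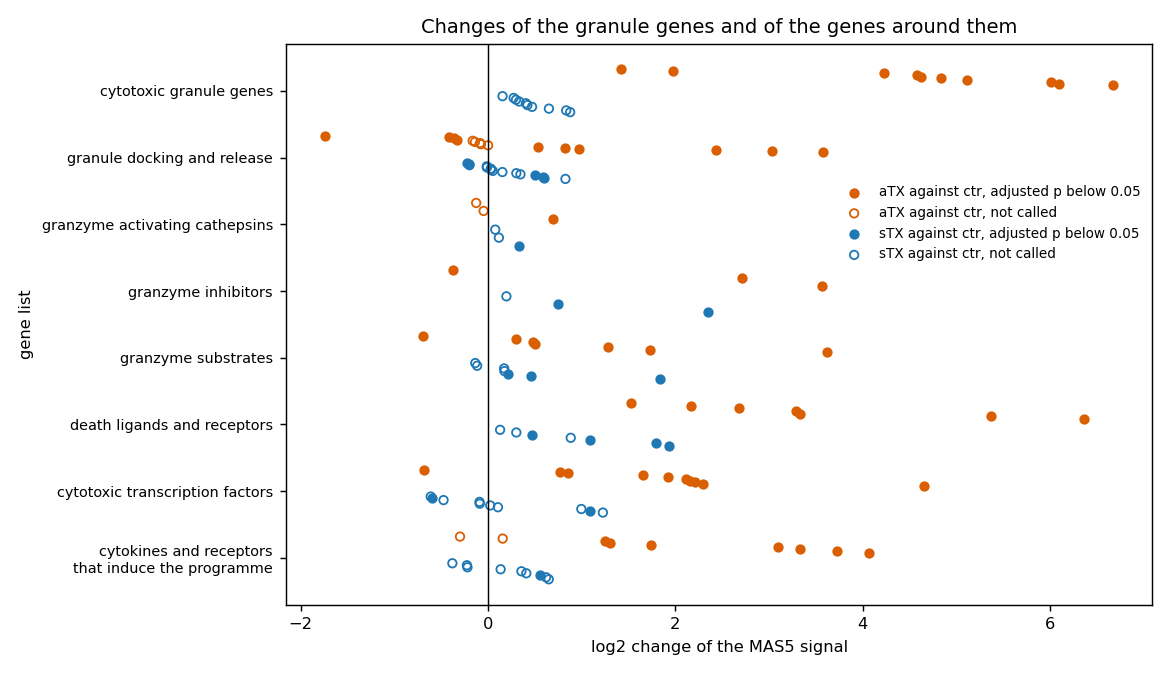
Log2 change of each granule gene probe set (top) and of each gene of 7 lists around them, for aTX against ctr (orange) and sTX against ctr (blue); filled points were called at an adjusted p below 0.05. The members of aTX lie from 1.42 to 6.67, those of sTX are all open, and granule docking and release has genes on both sides of 0.

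Genes whose signals followed the members most closely over the 15 arrays were found by the root mean square difference of centred log2 signals, which is small where 2 genes change by the same amount in the same kidneys. For Prf1 these were Zap70, a kinase of T cell receptor signalling, Cd3e of the receptor complex, and Lst1, at 0.23, 0.33 and 0.36 log2 units. Zap70 had 278, 376.5, 405, 463 and 332 in aTX, 12.8 to 22.2 in ctr and 16.5 to 28.4 in sTX. For Gzma they were Saa3, an acute phase protein, Ifgga2l1 and Batf2, at 0.45, 0.56 and 0.56. Saa3 reached 661, 819.6, 777, 1180 and 807 in aTX, with aTX 4 highest as for Gzma. For Gzmb they were Ifng, Ifgga2l1 and Il10, at 0.61, 0.63 and 0.64. The closest gene was Il2rg for Nkg7 (0.23), Relb for Gzmk (0.23), Irf5 for Srgn (0.19), C3h15orf48 for Cst7 (0.17), Il1rn for Gzmm (0.49) and Cd40 for Ctsw (0.58). All of these genes were higher in aTX than in ctr and in sTX. The measure ranks likeness over 3 groups that differ greatly and is a description.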

How the data were processed

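The authors deposited 1 table of MAS5 intensities for 15 kidneys, 1 column per array, together with the instrument record of each array. MAS5, as named in the submitters' processing notes without a version, subtracts background and summarises the probes of a probe set, and the methods also name a scaling to a common arithmetic mean. The deposited values instead share a trimmed mean, without the lowest and highest 2%, of 100. No counts exist on arrays, and the number of arrays limits the precision. From the instrument records only the hybridization date and time of each array was taken. Arrays separated by a long gap in that time were placed in different runs. These are called hybridization runs here, a name that the field itself does not give. The 57 Affymetrix control probe sets were left out, which left 31042, of which 20826 carry 1 gene symbol, 436 several and 9780 none. A floor of 0.05 replaced the 54 signals of 0, which lay in 36 probe sets, ahead of log2.

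Groups were taken from the sample titles. They were compared on log2 signals with limma 3.58.1 in R 4.3.3 (lmFit, contrasts.fit and eBayes, whose prior followed the mean signal), and the 3 groups entered 1 model. A probe set was called at an adjusted p below 0.05, with Benjamini-Hochberg adjustment over all 31042 probe sets. Folds are ratios of geometric means, brackets after them give 95% confidence intervals, and levels are means ± SD over 5 kidneys. The design text gives 5 rats per group. The fit was tested on simulated data. Python 3.11.15 (pandas 2.3.3, numpy 2.4.6) made the counts, and matplotlib 3.10.9 drew them.

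The members and all gene lists were chosen with earlier results of these data known. A gene of a list is represented by its probe set with the highest mean log2 signal. Named beside the members are, from each list around them, the 2 called genes with the largest change in aTX against ctr, the 3 genes most like Gzma, Gzmb and Prf1 and the 1 most like each other member, and marker genes where a result turns on them. All docking genes other than Unc13d and Stx11, and Ctsh, Ctsl, Serpinb6a, Ndufs3, Faslg, Fas, Eomes, Id2, Il15, Il12a, Il12b, Cd8a, Cd4, Ncr1, Klrg1, Ncr3, S100a8, S100a9, Csf3r, Camp and Umod were named after their values had been seen. Alternatives were log2 of the signal plus 16, centring on array medians, quantile normalization, a mean signal of at least 50, no trend, only the groups compared, the methods' t-test (p below 0.001, and after Benjamini-Hochberg), the replicate number or the hybridization run as a block, 1 hybridization run alone, no sTX 4 and sTX 5, and each array left out.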

Additional observations from a re-analysis of the deposited data

Results flagged for a closer look

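In 3 of 30 groups of 5 kidneys, 1 kidney stood apart from the other 4 by Dixon's test on log2 signals at the 95% level. Chance alone flags about 1 group in 20. Gzmm was 11.5 in sTX 1, where the other syngeneic grafts had 2.0 to 2.8. Nkg7 was 29.4 in ctr 3, against 17.2 to 19.8 in the other native kidneys. Srgn was 509.6 in ctr 4, against 305 to 339 in the others. All 3 signals lay below every allograft for the same gene.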

How the results depend on the processing

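The calls of the members in aTX against ctr and in aTX against sTX kept their direction and their side of the threshold in all 217 values computed for each comparison. The count stayed at 10 of 10 except with a mean signal of at least 50, where 7 were tested and 7 called. In sTX against ctr, 0 of 10 were called, 1 (of 7) with a mean signal of at least 50, 2 without sTX 4 and sTX 5, and from 0 to 3 with 1 array left out. The 3 were reached without ctr 3, while leaving out sTX 3, sTX 4 or sTX 5 gave 1, 1 and 2. Of the pathway genes 18 were called there, 11 by the methods' t-test after Benjamini-Hochberg adjustment, 5 by it at an unadjusted p below 0.001, 5 with a block for the hybridization run, and from 11 (without sTX 1) to 20 (without ctr 1) with 1 array left out.

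Changes of sign occurred in sTX against ctr, for values that did not pass the test. With arrays centred on their medians Srgn was at -0.0389, Irf5 at -0.0478 and Cd40 at -0.0434, and with quantile normalization Irf5 was at -0.0275 and Cd40 at -0.0495. Il2ra was at 0.0087 with 16 added to the signal, at 0.17 with a hybridization run block and at 0.0494 without sTX 4 and sTX 5, and Il1rn was at 0.16 and 0.22 in the latter 2. With 1 array left out, the dimmer probe set of Gzmb ran from -0.12 to 0.74, Gzmm from -0.18 to 0.58, Cd40 from -0.18 to 0.40, Il2ra from -0.71 to 0.25 and Il1rn from -0.32 to 0.31. The cause was not tested. Of other named genes, calls in sTX against ctr were lost in 82 values of 9 probe sets and gained in 11 values of 5, and calls in aTX against sTX were lost in 4 values of Ctsc.

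Kidneys with the same replicate number did not deviate together: 0 of 15 such pairs correlated above 0.1 once group means were removed (r from -0.02 to 0.03). This cannot tell whether some of them share a donor, since the labels do not tie kidneys to donors. With the replicate number as a block, 10, 0 and 10 members were called in aTX against ctr, sTX against ctr and aTX against sTX, and 44, 18 and 39 pathway genes in place of 45, 18 and 40. Depth has no counterpart here, and the folds of genes that were dim in ctr are the least certain in size.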
